A study of Mus musculus with 9 samples.

Results

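Genes of the inflammasome and of lytic cell death were followed in ribosome footprints from macrophages: Nlrp3, Nlrc4, Nlrp1b, Aim2, Pycard, Casp1, Casp4, Gsdmd, Ripk3 and Mlkl. They were taken by gene symbol and are 10 of the 16921 gene identifiers in the deposited table, and all 10 passed the filter on low levels. The footprints came from bone marrow-derived macrophages (BMDMs) of TTP-deficient mice that had been immortalized with the oncogenes hcmyc and hRasG12V. CD11b- and F4/80-positive cells were transduced with a vector from which doxycycline induces GFP, GFP-TTP or GFP-TTP-AA, a form of TTP that the kinase MK2 cannot phosphorylate. All 3 conditions therefore share the TTP deficiency, the oncogenes, doxycycline at 1 μg/ml for 6 h and LPS at 1 μg/ml for 1 h, and there is neither a sample without LPS nor a wild-type macrophage among them. Each condition is a separately transduced line with 3 libraries, numbered 1 to 3. The sources used here do not say that the libraries of a line came from separate cultures, and p-values then measure only the spread between these libraries, which may be technical.

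Inflammasomes are cytosolic complexes in which a sensor binds a sign of infection or damage and recruits, mostly through the adaptor ASC, the protease caspase-1. Caspase-1 matures interleukin-1β and interleukin-18 and cuts gasdermin D, whose amino-terminal part forms pores in the plasma membrane and so drives the lytic death called pyroptosis. Caspase-11, the product of mouse Casp4, binds cytosolic LPS and cuts gasdermin D without a sensor of that kind. Necroptosis is another lytic death, in which the kinase RIPK3 phosphorylates the membrane-lytic pseudokinase MLKL. TTP, encoded by Zfp36, binds AU-rich elements in the 3′UTR of mRNAs and promotes their decay and the repression of their translation.

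RiboSeq counts ribosome-protected fragments per gene, so that a lower value can come from fewer mRNA molecules or from fewer ribosomes on each, and the libraries do not tell these apart. The deposited table holds values fitted by the authors with DESeq2 and not the observed counts. Per library these values had a total of 2570292 to 12804501, and the size factors estimated here lay between 0.416 and 2.13. A level below is a fitted value over its library's size factor, and the level of a condition is the geometric mean of its 3 libraries. In the fit, every gene has the same ratios between replicates 1, 2 and 3 in each condition, so that the spread of the levels printed below is a fitted replicate term and not an observed error. Whether the levels of the lines overlap then follows from the fitted condition and replicate terms, and is no evidence beside the test. Each log2 fold change is given with a standard error (SE), which was taken from the comparison tables that the authors deposited. The model shrinks fold changes towards 0. Genes with a mean level of at least 10 were tested, and a gene was called past an adjusted p of 0.05 (Wald test on the DESeq2 fit, Benjamini-Hochberg over all genes tested).
The lines were checked before the genes were compared. Zfp36 had levels of 457.3, 923.8 and 1530.3 in GFP, GFP-TTP and GFP-TTP-AA macrophages, so that footprints were assigned to the gene in the TTP-deficient line as well. It was higher than in GFP by 1.01 in GFP-TTP and by 1.74 in GFP-TTP-AA (adjusted p = 0.0049 and 2.4e-09, Wald test, Benjamini-Hochberg). It was also higher in GFP-TTP-AA than in GFP-TTP (0.73, adjusted p = 0.039, same test). This last call was lost when the comparisons were adjusted together (adjusted p = 0.064). All 8 macrophage markers examined were in the table, of which Mertk had a mean level of 4.92 and the other 7 were at 104.1 or higher. Of 16 markers of T cells, B cells, neutrophils, fibroblasts, mast cells and endothelium, 7 were in the table and 6 of these had a mean level under 10. The remaining one, S100a8, which encodes a calcium-binding protein of neutrophils and monocytes, had levels of 26.9, 25.5 and 55.7 in GFP, GFP-TTP and GFP-TTP-AA macrophages.

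Of the 10 genes, 3 were past the threshold in at least 1 comparison and 7 in none. The share of all genes past it in at least 1 comparison was not computed, and the shares for each comparison are given below. Pycard and Ripk3 were lower in GFP-TTP than in GFP macrophages and higher in GFP-TTP-AA than in GFP-TTP macrophages. Casp4 was higher in GFP-TTP-AA macrophages than in both other lines. None of the 4 sensors, neither of the effectors Gsdmd and Mlkl, and not Casp1 was past the threshold.

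**Figure D1:**
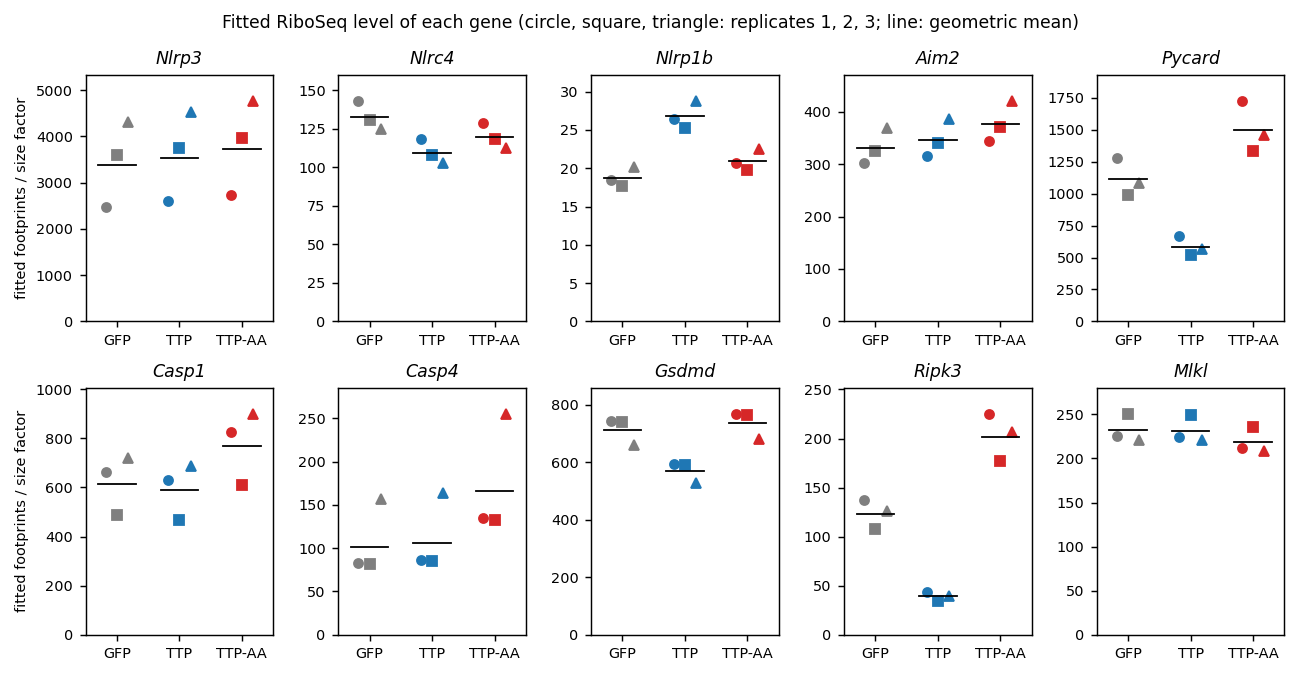
Fitted level (footprints divided by the size factor, linear axis from 0) of each gene in every library. Symbols mark replicates 1 (circle), 2 (square) and 3 (triangle), whose ratios are the same in every condition by construction, and lines mark the geometric mean. Ripk3 and Pycard were lowest in GFP-TTP (means 39.0 and 583.6).

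With GFP-TTP against GFP macrophages, 2 of the 10 genes were called lower and 0 higher, while among all 9938 genes tested 1.29% were called lower and 0.805% higher. With GFP-TTP-AA against GFP macrophages, 2 genes were called higher and 0 lower, against 1.75% higher and 1.27% lower among 10099 genes. With GFP-TTP-AA against GFP-TTP macrophages, 3 genes were called higher and 0 lower, against 5.62% higher and 4.61% lower among all genes. The 10 genes had a median of -0.03, 0.17 and 0.25 on the log2 scale in these comparisons, where that of all genes was 0.00, 0.01 and 0.00. At an unadjusted p under 0.05, 4, 4 and 5 of the 10 genes would have passed, against 11.3%, 14.2% and 22.1% of all genes tested. Each line takes part in 2 of the comparisons, so that these counts are not independent of each other. The 10 genes were chosen with earlier results of these data known, so that the counts beside these shares are no measure of enrichment.

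**Figure D2:**
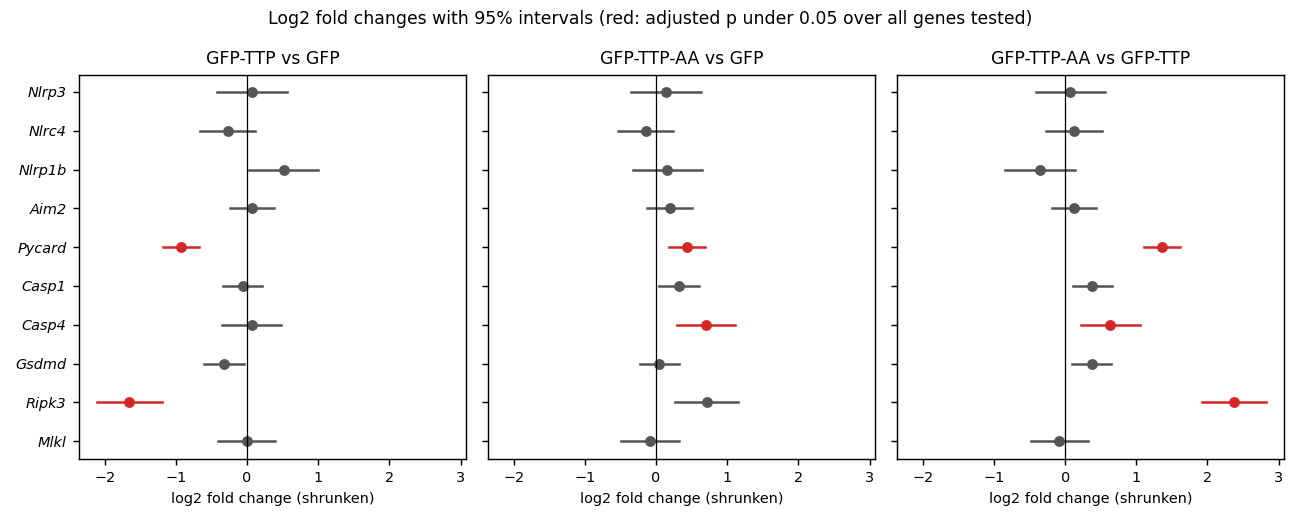
Log2 fold change of each gene in the 3 comparisons, with its 95% interval from the SE in the authors' deposited tables. Red marks an adjusted p under 0.05 over all genes tested. Ripk3 and Pycard lay left of 0 in GFP-TTP against GFP (-1.66 and -0.93) and right of it in GFP-TTP-AA against GFP-TTP (2.37 and 1.36).

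The adaptor came first among the genes called. Pycard, on the minus strand of chr7:127989708-127993867 (GRCm38), encodes ASC, which links sensors with a pyrin domain to caspase-1. Its level was 1278, 990.4 and 1082 in the GFP libraries, 671.6, 520.4 and 568.6 in the GFP-TTP libraries, and 1724, 1336 and 1459 in the GFP-TTP-AA libraries. The fitted level was lowest in GFP-TTP and highest in GFP-TTP-AA. Pycard was 1.90-fold lower in GFP-TTP than in GFP macrophages, a log2 fold change of -0.93 (SE 0.13, adjusted p = 8.4e-10, Wald test, Benjamini-Hochberg). It was 2.57-fold higher in GFP-TTP-AA than in GFP-TTP macrophages, with 1.36 on the log2 scale (SE 0.13, adjusted p = 2e-22, same test). The difference between GFP-TTP-AA and GFP was smaller, 0.43 (SE 0.13, adjusted p = 0.033, same test), and with the median of chromosome 7 subtracted its adjusted p was 0.061.

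Ripk3 had the largest differences of the 10 genes. It lies on the minus strand of chr14:55784995-55788865 and encodes the kinase that starts necroptosis. The level was 136.9, 108.1 and 125.7 in GFP, 43.4, 34.3 and 39.9 in GFP-TTP, and 224.7, 177.3 and 206.3 in GFP-TTP-AA libraries. Ripk3, too, was lowest in GFP-TTP and highest in GFP-TTP-AA. In GFP-TTP it was 3.15-fold lower than in GFP macrophages, with a log2 fold change of -1.66 (SE 0.23, adjusted p = 6e-10, Wald test, Benjamini-Hochberg), the 8th lowest value of 9938 genes. In GFP-TTP-AA it was 5.17-fold higher than in GFP-TTP macrophages, with 2.37 (SE 0.23, adjusted p = 8.8e-22, same test), the 11th highest value of 10099 genes. Against GFP, the value in GFP-TTP-AA macrophages was 0.71 (SE 0.23, adjusted p = 0.051, same test), which missed the threshold. That adjusted p fell to 0.036 when the 3 comparisons were adjusted together and to 0.040 with the median of chromosome 14 subtracted. Under the other tested alternatives it stayed above 0.05, at up to 0.058 (same test).
Its substrate did not pass the test in any comparison. Mlkl had levels between 221.2 and 250.1 in GFP, 220.4 and 249.2 in GFP-TTP, and 208.4 and 235.7 in GFP-TTP-AA libraries. The log2 fold changes of Mlkl were -0.00, -0.09 and -0.08 for GFP-TTP against GFP, GFP-TTP-AA against GFP and GFP-TTP-AA against GFP-TTP. Their intervals reached from -0.41 to 0.40, from -0.49 to 0.32 and from -0.48 to 0.32.

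Some macrophage markers moved in the same directions as Pycard and Ripk3. The summed level of the 8 markers was 85149 to 104352 in GFP, 67612 to 81607 in GFP-TTP and 96727 to 118705 in GFP-TTP-AA libraries. Most of it is Lyz2. Without this gene the sum was 28502 to 31660.3 in GFP, 26903 to 29368 in GFP-TTP and 33560.2 to 37647 in GFP-TTP-AA libraries. Both ends of the range were lower in GFP-TTP than in GFP. The ranges of these lines overlapped, but they hold the fitted replicate term, and the overlap is no evidence of equal sums. Of the 7 markers tested, 3 were lower in GFP-TTP than in GFP and the same number was higher in GFP-TTP-AA than in GFP-TTP. These were Emr1, which encodes F4/80 and was used to select the cells (-0.68 and 1.22), the lysozyme gene Lyz2 (-0.48 and 0.63) and the Fc receptor gene Fcgr1 (-0.95 and 0.72), with adjusted p-values of at most 0.017 (same test). The call of Lyz2 in GFP-TTP against GFP was lost with chromosome medians subtracted (adjusted p = 0.11, same test). In GFP-TTP-AA against GFP, 1 of the 7 was called, Emr1, which was higher (0.54, adjusted p = 0.029, same test). Itgam, which encodes CD11b and was also used in the selection, had levels of 2957, 3178 and 3179 in GFP, GFP-TTP and GFP-TTP-AA. The part of these markers in the differences of Pycard and Ripk3 was not tested.

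Of the caspases, Casp4 was called and Casp1 was not, and the difference between them was not tested. Casp4, on the plus strand of chr9:5308828-5336783, had levels of 82.7, 81.4 and 156.6 in GFP, 86.4, 85.1 and 163.7 in GFP-TTP, and 134.4, 132.4 and 254.6 in GFP-TTP-AA libraries. Replicate 3 was highest in each line, and the ranges of the lines overlapped across replicates. Casp4 was 1.63-fold higher in GFP-TTP-AA than in GFP (log2 fold change 0.70, SE 0.21, adjusted p = 0.035, Wald test, Benjamini-Hochberg). Against GFP-TTP it was 1.56-fold higher (0.64, SE 0.21, adjusted p = 0.029, same test). Between GFP-TTP and GFP its value was 0.06, with an interval of -0.35 to 0.48. The call against GFP was lost with the median of chromosome 9 subtracted (adjusted p = 0.052, same test). S100a8 was likewise higher in GFP-TTP-AA than in GFP (1.05, adjusted p = 0.0023, same test) and than in GFP-TTP (1.13, adjusted p = 0.00024, same test), and its part in the differences of Casp4 was not tested.
Casp1 is the neighbour of Casp4, on the same strand at chr9:5298517-5307265, and encodes the caspase that inflammasomes activate. Its levels were 488.6 to 719.8 in GFP, 467.3 to 688.4 in GFP-TTP and 609.5 to 897.9 in GFP-TTP-AA libraries. The log2 fold change in GFP-TTP-AA was 0.32 against GFP (SE 0.14, adjusted p = 0.24, same test) and 0.38 against GFP-TTP (SE 0.14, adjusted p = 0.063). In GFP-TTP against GFP it was -0.06, with an interval of -0.34 to 0.22.
Gsdmd, on the plus strand of chr15:75862327-75867408, encodes the pore-forming substrate of both caspases. Its level was 741.5, 738.2 and 658.9 in GFP, 592.4, 589.8 and 526.5 in GFP-TTP, and 766.1, 762.7 and 680.8 in GFP-TTP-AA libraries. The fitted level was lowest in GFP-TTP. The log2 fold change was -0.32 in GFP-TTP against GFP (SE 0.14, adjusted p = 0.32, same test). For GFP-TTP-AA against GFP-TTP it was 0.37 (SE 0.14, adjusted p = 0.076), so that neither passed. With the median of chromosome 15 subtracted, the latter became 0.46 with an adjusted p of 0.022 (same test). Under the other tested alternatives its adjusted p stayed above 0.05, at up to 0.12 (same test).

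Among the sensors, Nlrp3 had the highest level. NLRP3 responds to potassium efflux and many other danger signals, and its transcript is known to be induced by LPS. Its level was 2477, 3589 and 4320.2 in GFP, 2595, 3760 and 4526 in GFP-TTP, and 2733.5, 3960.0 and 4767 in GFP-TTP-AA libraries. In each line replicate 3 was highest. The overlap of the lines follows in part from this fitted replicate term and is no evidence beside the test. Log2 fold changes were 0.07, 0.14 and 0.07 for GFP-TTP against GFP, GFP-TTP-AA against GFP and GFP-TTP-AA against GFP-TTP. The SE of 0.25 equals, to 2 decimals, the largest among the tested genes, and the intervals reached from -0.42 to 0.56, from -0.35 to 0.63 and from -0.42 to 0.57.
Aim2, the sensor of cytosolic DNA, had levels of 301.9 to 368.5 in GFP, 316.1 to 385.8 in GFP-TTP and 344.3 to 420.2 in GFP-TTP-AA libraries. Its log2 fold changes were 0.07, 0.19 and 0.12 (SE 0.16), and its annotated span overlaps Cadm3. For Nlrc4, which is activated through NAIP proteins by bacterial flagellin and secretion systems, levels were 124.5 to 142.9 in GFP, 102.9 to 118.1 in GFP-TTP and 112.3 to 128.9 in GFP-TTP-AA libraries. Its values were -0.28, -0.15 and 0.13 (SE 0.20).
Nlrp1b, the remaining sensor, had the lowest level of the 10 genes. It was 18.5, 17.7 and 20.2 in GFP, 26.4, 25.3 and 28.8 in GFP-TTP, and 20.7, 19.8 and 22.5 in GFP-TTP-AA libraries. The fitted level was highest in GFP-TTP, and its log2 fold change against GFP was 0.51 (SE 0.25, adjusted p = 0.40, same test). Up to 2 alignments were kept per read, so that footprints on Nlrp1b and its paralog Nlrp1a may be shared between them.

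**Figure D3:**
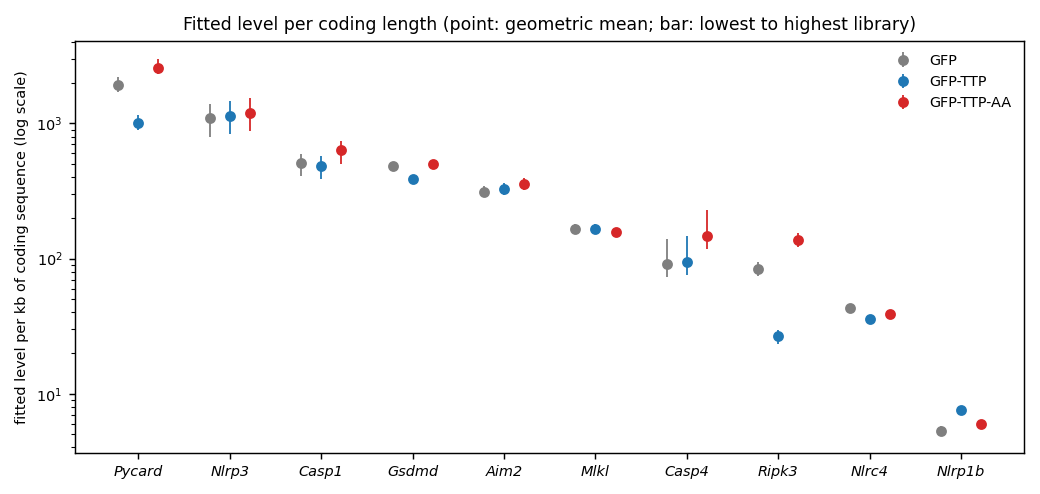
Fitted level per kb of coding sequence on a log axis, ordered by the value in GFP macrophages. Points mark geometric means of 3 libraries and bars the lowest and the highest fitted library. In GFP-TTP macrophages Ripk3 stood at 26.8, below Nlrc4 at 35.6, while in both other lines it stood above Nlrc4.

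Per kb of coding sequence, which allows levels of different genes to be set side by side, Pycard stood highest in GFP macrophages with 1918 and Nlrp3 followed with 1089. Casp1 with 509.8 and Gsdmd with 487.2 came next and overlapped in their libraries. Aim2 stood at 311.3, Mlkl at 166.5, Casp4 at 90.9 and Ripk3 at 84.4, of which the latter pair overlapped. Nlrc4 at 43.1 and Nlrp1b at 5.33 came last. In GFP-TTP macrophages Pycard, at 1008, lay within the range of the Nlrp3 libraries, 837.5 to 1461. In GFP-TTP-AA macrophages Pycard, at 2587, exceeded every Nlrp3 library, the highest of which was at 1538.

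Because TTP is known to bind AU-rich elements, the 3′UTR of each gene was searched on its sense strand for the pentamer ATTTA and for the longer TATTTAT, which holds ATTTA within it. The principal transcript in GENCODE vM21 was used. ATTTA was found in 5 of the 10 genes, with 5 copies in Nlrp3, 3 in Pycard, 2 in Nlrc4, 2 in Casp4 and 1 in Aim2. TATTTAT was found in Nlrp3, Pycard and Casp4. Among the 9887 annotated protein-coding genes with a 3′UTR and a mean level of at least 10, 68.3% held ATTTA and 28.7% held TATTTAT. For each of the 3 genes, 1 site with TATTTAT is printed below as DNA of the sense strand, with the motif in capitals, since 2 of these genes were called and Nlrp3 was not.
Nlrp3, chr11:59566838-59566867, plus strand: aacccatttttgTATTTATtgtatgtttgt
Pycard, chr7:127991532-127991561, minus strand: tcttccaagtgtTATTTATggtcctaccta
Casp4, chr9:5336740-5336769, plus strand: agaaatttgtttTATTTATttgtgtacata
These sites lie 588 bases after the stop codon in Nlrp3, 1164 bases after it in Pycard and 224 bases after it in Casp4. Long 3′UTRs hold such motifs more often, and the 3′UTR is 3004 bases long in Pycard, 693 in Nlrp3 and 254 in Casp4. Among annotated protein-coding genes of any level whose 3′UTR is within 10% of that length, TATTTAT occurred in 55.8% for Pycard, 19.2% for Nlrp3 and 7.11% for Casp4. Neither motif was in the 202 bases of Ripk3 or in the 3′UTR of Casp1, Gsdmd, Nlrp1b and Mlkl. A match of letters is no evidence of binding, and iCLIP libraries were not analysed here.

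The values of Pycard and Ripk3 were also set beside those of the genes around them. Within 500 kb of Pycard 22 genes were tested, 1 of which had no SE in GFP-TTP against GFP, and 0 were called in any comparison (Wald test, Benjamini-Hochberg). At an unadjusted p under 0.05, 1, 1 and 0 of them would have passed with GFP-TTP against GFP, GFP-TTP-AA against GFP and GFP-TTP-AA against GFP-TTP. Of all genes tested, 11.3%, 14.2% and 22.1% passed it in these comparisons. The shares of all genes called were 0.805%, 1.75% and 5.62% higher and 1.29%, 1.27% and 4.61% lower. Whether the neighbours differ from these shares was not tested. In GFP-TTP-AA against GFP-TTP the log2 fold changes of the genes near Pycard reached from -0.29 to 0.43. Within 500 kb of Ripk3 18 genes were tested, and 1 was called. This was Irf9, which encodes a subunit of the interferon-induced factor ISGF3, with 1.16 in GFP-TTP-AA against GFP-TTP (SE 0.25, adjusted p = 0.00015, same test). Irf9 had -0.62 in GFP-TTP against GFP and 0.54 in GFP-TTP-AA against GFP (adjusted p = 0.24 and 0.26, same test), and in each comparison 1 of the 18 genes had an unadjusted p under 0.05. The others near Ripk3 lay between -0.39 and 0.33 in this comparison. The interval around Casp1 and Casp4 held no other tested gene than this pair. Near Nlrp1b, 2 of 16 tested genes were called in GFP-TTP-AA against GFP and 4 in GFP-TTP-AA against GFP-TTP. Near Gsdmd, 1 and 2 of 21 were called in these comparisons. No gene near Nlrp1b or Gsdmd was called in GFP-TTP against GFP. Near Nlrp3, Nlrc4, Aim2 and Mlkl, 0 were called in any comparison.

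**Figure D4:**
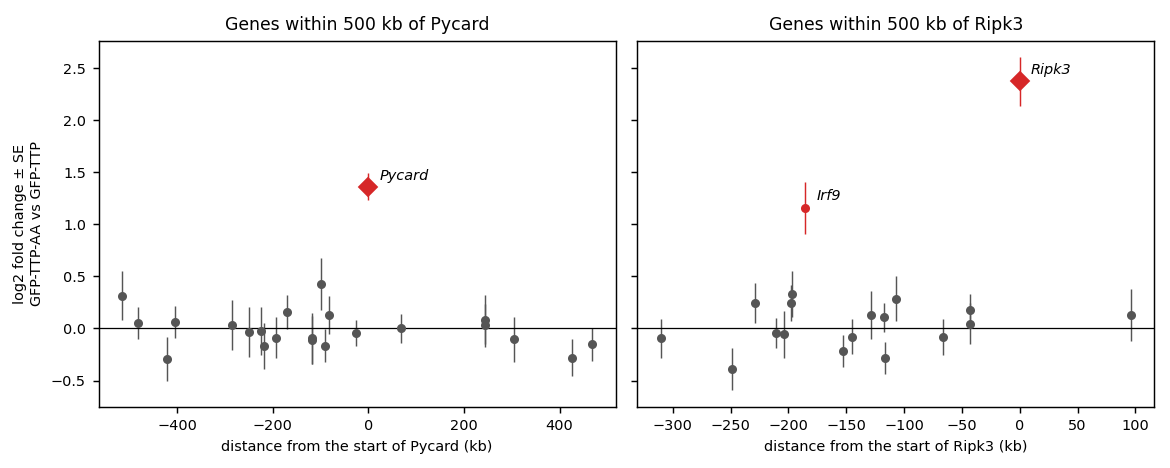
Log2 fold change in GFP-TTP-AA against GFP-TTP macrophages (± SE) of each tested gene within 500 kb of Pycard (left) and Ripk3 (right), by distance of its start site in kb. Diamonds mark Pycard (1.36) and Ripk3 (2.37), and red marks an adjusted p under 0.05. Irf9 (1.16) was the neighbour called.

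Of 37 further genes of the pathway, 32 were in the table and 29 of these had a mean level of at least 10. Of the tested genes 0 were called higher and 2 lower in GFP-TTP against GFP, 2 higher and 1 lower in GFP-TTP-AA against GFP, and 6 higher and 0 lower in GFP-TTP-AA against GFP-TTP. The median log2 fold changes were -0.13, 0.09 and 0.17, and 7, 7 and 11 genes would have passed at an unadjusted p under 0.05, for which the shares of all genes were also given above. The share of all genes called in each direction is the one given above for the 10 genes. For genes called in at least 1 comparison no such share was computed. This list too was chosen with earlier results of these data known, so that its counts are no measure of enrichment.
Guanylate-binding proteins, which expose LPS of cytosolic bacteria to caspase-11, held 3 of the 7 genes called. Gbp2 had levels of 50.4, 37.7 and 105.8 in GFP, GFP-TTP and GFP-TTP-AA macrophages, and was higher in GFP-TTP-AA by 1.07 against GFP (adjusted p = 0.00095, Wald test, Benjamini-Hochberg) and by 1.49 against GFP-TTP (adjusted p = 6.1e-08, same test). Gbp3 was lower in GFP-TTP than in GFP (-0.96, adjusted p = 0.0063, same test) and higher in GFP-TTP-AA than in GFP-TTP (1.55, adjusted p = 1.5e-08, same test). Gbp7 was called only in the latter comparison (0.75, adjusted p = 0.031, same test). That call was lost when the comparisons were adjusted together (adjusted p = 0.053) and with chromosome medians subtracted (adjusted p = 0.072), and Gbp7 drops out at a mean level of at least 50. The call of Gbp3 in GFP-TTP against GFP was also lost with chromosome medians subtracted (-0.78, adjusted p = 0.064, same test). Gbp5, with a mean level of 10.4, had no SE in GFP-TTP against GFP and was not called in the other comparisons. In every line, replicate 3 lay above replicate 1 by 1.59 for Gbp2, 0.99 for Gbp3 and 0.37 for Gbp7 on the log2 scale. This replicate term had an SD of 0.29 over all genes with a mean level of at least 10.
Genes that act at the membrane were called as well. Dfna5, the symbol in the files for the gasdermin E gene, had levels of 73.4, 37.0 and 83.3 in GFP, GFP-TTP and GFP-TTP-AA macrophages, and was lower in GFP-TTP than in GFP (-0.99, adjusted p = 0.0021, same test). It was higher in GFP-TTP-AA than in GFP-TTP macrophages (1.17, adjusted p = 2.2e-05, same test). Ninj1, which encodes the protein that ruptures the plasma membrane late in lytic death, was higher in GFP-TTP-AA by 0.83 against GFP (adjusted p = 0.00018, same test) and by 1.03 against GFP-TTP (adjusted p = 1.4e-07, same test).
Of 8 tested genes that control necroptosis, Birc3, which encodes the ubiquitin ligase cIAP2, was called, with 0.81 in GFP-TTP-AA against GFP-TTP (adjusted p = 0.0024, same test). Cflar, which encodes the caspase-8 regulator cFLIP, had 0.58 in this comparison (adjusted p = 0.076, same test). Ripk1, the kinase upstream of RIPK3, had 0.37 in this comparison (adjusted p = 0.084, same test), and Casp8, which cleaves RIPK1 and RIPK3, had 0.21 (adjusted p = 0.43, same test). The remaining genes of the 8 had 0.46 (Ticam1), 0.43 (Fadd), 0.06 (Birc2) and -0.22 (Cyld) there, and none of them was called. The term of replicate 3 against replicate 1 was 1.16 for Birc3, 0.94 for Cflar, -0.01 for Ripk1 and -0.04 for Casp8. Among factors upstream of NLRP3, Txnip, whose product binds thioredoxin and was described as an NLRP3 partner, was lower in GFP-TTP-AA than in GFP (-0.71, adjusted p = 0.00093, same test).
The substrates and their antagonist were not called in any comparison. Levels in GFP, GFP-TTP and GFP-TTP-AA were 471.6, 482.1 and 447.8 for Il1b, 28.5, 23.9 and 28.3 for Il18, 167.4, 159.7 and 139.1 for Il1a, and 1209, 1258 and 1203 for the receptor antagonist Il1rn. Their log2 fold changes lay between -0.27 and 0.24, with SEs of 0.23 to 0.25.

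**Figure D5:**
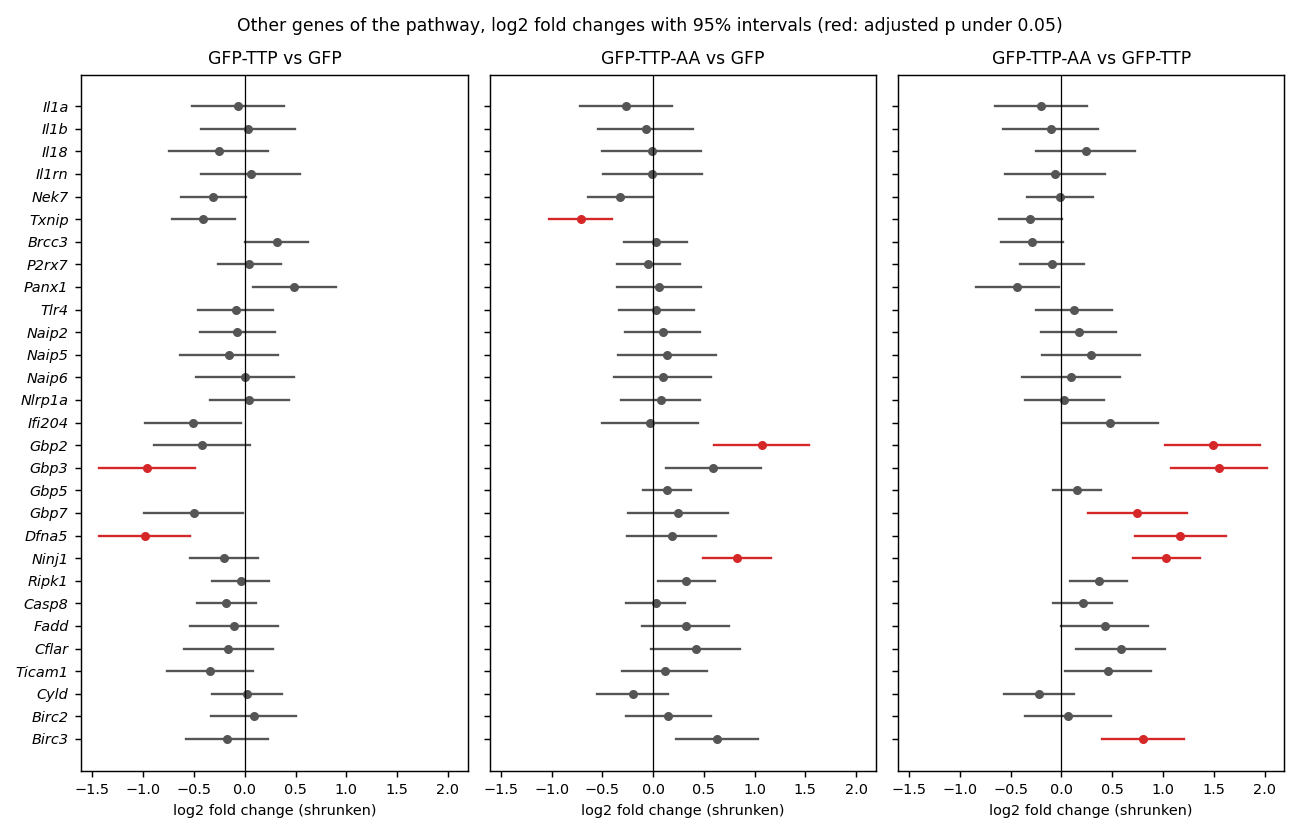
Log2 fold changes with 95% intervals of the other tested genes of the pathway in the 3 comparisons, with an adjusted p under 0.05 in red. In GFP-TTP-AA against GFP-TTP the genes called were Gbp2, Gbp3, Gbp7, Dfna5, Ninj1 and Birc3, from 0.75 to 1.55.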

How the data were processed

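Ribosome footprint libraries (3 per line) were analysed from the deposited tables. The authors mapped reads to mm10 with TopHat (up to 2 alignments per read, GRCm38 annotation) and fitted them in DESeq2 1.6.3 with library date and condition. The submitters' processing notes also name Trim Galore and HTSeq. The 9 columns deposited by the authors as normalized counts are a signal, fitted by this model: after condition and replicate terms, log2 values departed by at most 1.1e-14 (SD of the values 4.79, 0 zeros). The authors' comparison tables hold a mean signal, log2 fold changes, their SEs on the log2 scale, a statistic and p-values. Only the mean and the SE were used here, so that the errors are those of the authors' DESeq2 model. The table has 16932 lines, of which 11 are repeated.

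Size factors were estimated by median of ratios and scaled to the authors' mean. A log2 fold change was the difference of mean log2 levels, divided by the SE for a two-sided Wald p. Benjamini-Hochberg adjustment ran over genes with a mean level of at least 10 (10099 genes). In GFP-TTP against GFP it ran over 9938 genes, because the others of these had no SE there. Because fold changes and errors both come from that model, these p-values are not independent of the authors' own. The script was tested on simulated data. Library numbers stand in for the date. The members and gene lists were chosen with earlier results of these data known. Named genes were the 10 members, Zfp36, and every gene of the pathway list past the threshold. Ripk1, Casp8, Cflar, Ticam1, Fadd, Birc2, Cyld, the cytokines, Gbp5, Irf9 and the markers were added after their values were seen. Alternatives were other filters, scalings, pseudocounts, adjustments and chromosome medians. Positions are from GENCODE vM21 (GRCm38), which placed 16836 identifiers. Not every motif site is reported here. Python 3.11.15, numpy 2.4.6, pandas 2.3.3 and scipy 1.17.1 were used.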

Additional observations from a re-analysis of the deposited data

How the results depend on the processing

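For the 10 genes, 202 of 207 tested values under alternatives kept their direction and their side of the threshold. Filters and adjustments leave the fold change as it is and a pseudocount cannot turn its sign. Under the rescalings and chromosome medians, which can, no sign of the 10 genes changed. Of 60 values with a pseudocount, which carry no test, 1 moved by more than its SE. For the other named genes 257 of 264 tested values were kept. Subtraction of each chromosome's median log2 fold change moved most of the others. With it, 1 of the 10 genes was past the threshold in GFP-TTP-AA against GFP in place of 2, since Pycard (0.40, adjusted p = 0.061) and Casp4 (0.67, adjusted p = 0.052) were lost and Ripk3 (0.75, adjusted p = 0.040) passed (Wald test, Benjamini-Hochberg). The same setting gave 1 gene of the pathway list in place of 2 in GFP-TTP against GFP, since Gbp3 was lost, turned the uncalled S100a8 in that comparison to 0.10, and Gsdmd passed in GFP-TTP-AA against GFP-TTP (0.46, adjusted p = 0.022). Adjustment over the 3 comparisons together let Ripk3 pass in GFP-TTP-AA against GFP (adjusted p = 0.036) and Birc3 (adjusted p = 0.046), and Zfp36 in GFP-TTP-AA against GFP-TTP was lost (adjusted p = 0.064). With a pseudocount of 10 the value of Ripk3 in GFP-TTP-AA against GFP-TTP was 2.11 in place of 2.37. Scaling on genes with a mean level under 1 was chosen after seeing the data.
No paired analysis was possible because the deposited values are fitted and already hold the replicate term. For the same reason fits that leave out 1 library were not run, and no single library can be shown to carry a result. The largest SE was 0.25, and values as large as 0.71 (Ripk3, GFP-TTP-AA against GFP) did not pass.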
